A study of Sus scrofa with 3 samples.

Results

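Besides protein-coding messengers, the annotation of the pig liver libraries held RNA features that it classed as miscRNA, ncRNA, tRNA, rRNA, precursor miRNA or miRNA. The 346 features described here were chosen by their measured level, as the features with a GeneType other than mRNA and a mean FPKM of at least 100 over the 3 libraries, out of 11634 features other than mRNA and 34579 features in all. Since the measured values selected them, their levels are given as a description. The values are called FPKM as deposited, but their scale is not the usual one. The lowest mean inside the limit was that of LOC100627612, with 100.1, and the highest outside it was that of LOC100625333, with 99.5.

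The liver came from male Wuzhishan miniature pigs, which were 6 to 7 months old when the study obtained them and older when the liver was taken, and all of the pigs were fed the HFC diet, rich in fat and cholesterol. IM were intact males that had a sham operation, CM were surgically castrated males, and CMT were castrated males given weekly intramuscular testosterone propionate. Each group was 1 library made from a pool of RNA, for which the sample labels give 3 pigs. The methods of the study pool the pigs of a group, and the group was larger than this number, so the size of the pool is uncertain. Livers of pigs on a standard diet are not analysed here. With 1 library a group, the spread between pigs is unknown, no difference has a replicate check and no p-value was computed. The recovered number of reads per library was 32197628 in IM and 36126730 in CM, with 25419901 in CMT, and the intervals given with a ratio are 95% exact binomial intervals from those reads, which cover counting error only and compare libraries rather than conditions. In bulk tissue, fewer cells of a type and less RNA per cell cannot be told apart.

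Ribosomal RNAs form the ribosome and transfer RNAs carry its amino acids, and mitochondria make a small set of both from their own genome. Precursor miRNAs are the hairpins from which the short miRNAs that silence messengers are cut. Long noncoding RNAs and transcribed pseudogenes are often spliced and polyadenylated like messengers, while most rRNA and tRNA carries no poly(A) tail. These libraries were made from RNA captured by its poly(A) tail, so that an rRNA or tRNA value here is the part that was left after this capture and not the amount in the cell.

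By GeneType, 297 of the 346 members were miscRNA, 29 were ncRNA, 14 were tRNA, 4 were rRNA and 2 were precursor miRNA. None of the 92 miRNA features reached the level, and all 4 rRNA features did. The GeneType did not separate noncoding from coding RNA. Of the members, 318 carried only a LOC number, and 125 could be matched to the RefSeq annotation of Sscrofa11.1, a later assembly than the Sscrofa10.2 genome used for the files, 116 by gene ID and 9 by symbol. Among those matched, 58 were protein-coding genes, 43 were lncRNAs, 16 were pseudogenes and 3 were transcribed pseudogenes in RefSeq, while 221 members had no match. The protein-coding matches included LOC100517137, which is ALDH1A1, the enzyme that oxidises retinal to retinoic acid, LOC100624675, which is the collagen gene COL18A1, and LOC102158045, which is the RNA helicase DDX5.

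Together the members held 5.52% of the FPKM column sum in IM against 5.21% in CM, with 6.42% in CMT. The miscRNA members held the most, with 4.07%, 3.90% and 4.75% in IM, CM and CMT. The tRNA members followed with 1.09%, 1.05% and 1.26%. In both classes the share was lowest in CM and highest in CMT. The ncRNA members, at 0.256%, 0.149% and 0.322%, had the widest spread of the classes, with a sum that was 2.57 times as high in CMT as in CM. This ratio was 1.52 without LOC100624435 and 1.20 without the 3 ncRNA members lowest in CM, both chosen after seeing the data. The rRNA members held 0.0965%, 0.0767% and 0.0752%, so their share in CMT was not higher than in CM. The precursor miRNAs held 0.0189%, 0.0231% and 0.0130%, with the highest share in CM.

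The higher total in CMT rested on a pair of miscRNA members, LOC102161510 and LOC100739222. Without them, an alternative chosen after seeing the data, the members held 4.72% in IM and 4.75% in CM, with 4.87% in CMT. The share also depended on how a feature was weighted. FPKM divides by length, and 60 of the 316 members whose reads could be recovered had a recovered length under 200 bases. Among these was 12S, with 160 where RefSeq gives 960. As a share of recovered reads, the members held 2.71%, 2.83% and 2.77%, with the highest share in CM, and the tRNA members held between 0.0560% and 0.0707%. The 30 members without recovered reads, which are left out of that share, include both of the named pair and held 29.0%, 25.6% and 37.5% of the members' FPKM sum in IM, CM and CMT. The 316 others held 3.92%, 3.87% and 4.01% of the column sum.

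**Figure D1:**
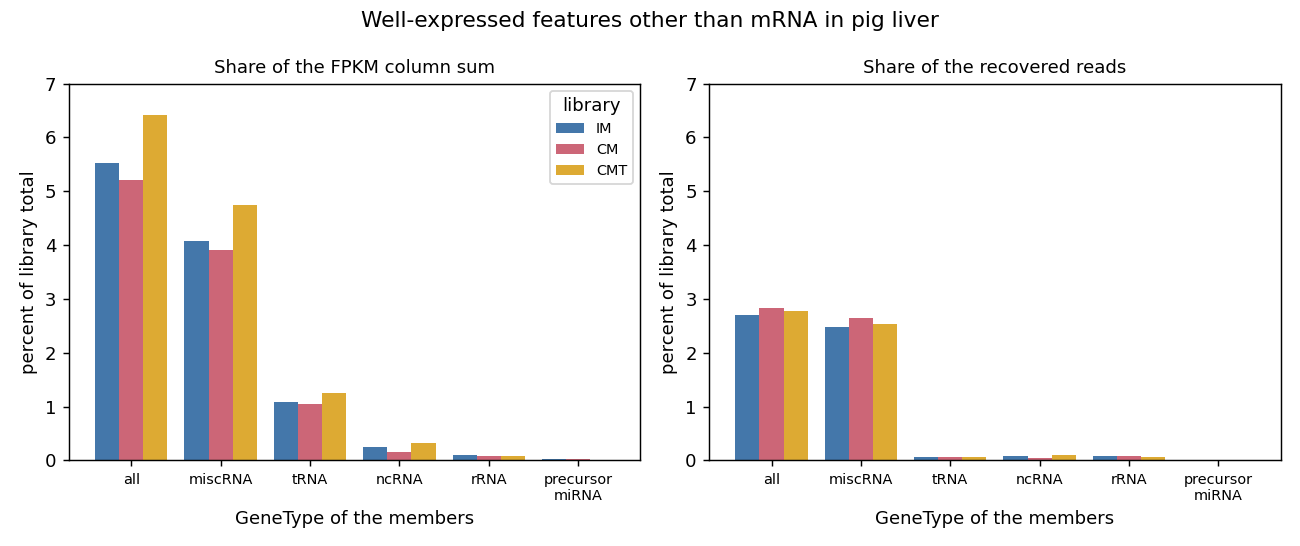
Share of each library total held by the members, all together and by GeneType, as percent of the FPKM column sum (left) and of the recovered reads (right); bars start at 0 and each bar is 1 library. On the left the total is 5.52% in IM and 5.21% in CM, with 6.42% in CMT, while on the right, where 30 members have no recovered reads, it lies between 2.71% and 2.83%.

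A few members held most of this sum. The 5 highest by mean, tRNA-Ser, LOC102161510, LOC100739222, LOC100622640 and LOC100623732, made up 45.3% of it in IM against 39.3% in CM, with 51.4% in CMT, and the 50 highest between 79.8% and 84.2%. The median member had an FPKM of 244 in IM and 199 in CM, with 257 in CMT. LOC102161510 had an FPKM of 29939 in IM and 14686 in CM, with 75233 in CMT, a difference of 5.12-fold between CMT and CM. LOC100739222 followed the same order, with 39521, 18500 and 58207, and was 3.15-fold higher in CMT than in CM. Neither was matched in RefSeq, and for neither could reads be recovered. The next in level differed less. LOC100622640 had 39566 in IM against 31736 in CM, with 35280 in CMT, and LOC100623732 had 25370, 17885 and 24508. LOC100739053, with 21176, 21869 and 22134, was nearly level, its values lying within 1.05-fold of each other.

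Whether castration and testosterone replacement went with a difference in these features was addressed by the ratio of deposited FPKM values between libraries, counting a member as different at 1.5-fold or more. Of the 346 members, 345 reached an FPKM of 1 in each library and entered the count. The remaining member, LOC102161547, was at 0 in CM. Its FPKM was 76.9, 0 and 330, from 122, 0 and 425 reads. Set against the 3 reads that a count of 0 allows in CM, its values were 55.4-fold higher in IM and 237-fold higher in CMT. With counting error in both libraries, the interval of the ratio of CM to IM reached up to 0.0225. The interval of the ratio of CMT to CM began at 192. Only its CMT value was above the mean limit for membership, so these ratios were tied to that selection.

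Between CM and IM, 76 members were lower and 18 higher in CM. These were 22.0% and 5.22% of the 345 members, against 12.9% and 5.07% of the 5191 mRNA features with the same mean level. As a median, the log2 ratio was -0.18 over the members and -0.08 over those mRNA features. Between CMT and CM, 72 members were higher and 22 lower in CMT, 20.9% and 6.38%, against 15.4% and 5.32% of mRNA features. Here the medians were 0.21 and 0.14. Between CMT and IM, 23 members were higher and 30 lower in CMT, 6.67% and 8.70%, against 3.51% and 3.83% of mRNA features, with medians of 0.05 in both. A member was thus past the fold more often than an mRNA feature in the direction of lower values in CM, and in both directions between CMT and IM, and at near the same share for higher values in CM.

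Lowest in CM against both other libraries were 52 members, or 15.1%, and highest in CM were 9, or 2.61%. Among mRNA features these shares were 9.63% and 3.37%. By GeneType, the count lowest in CM was 42 of 296 miscRNA members, 6 of 29 ncRNA, 3 of 14 tRNA, 1 of 4 rRNA and 0 of 2 precursor miRNA. Members matched to RefSeq lncRNAs gave 6 of 43, protein-coding matches 8 of 58, pseudogenes 2 of 16, and members without a match 34 of 220. The share was thus between 12.5% and 15.5% in these groups.

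The choice of scale set the split between higher and lower. Scaling by the median ratio of mRNA features kept it near that of the deposited scale. It gave 68 members lower and 18 higher in CM than in IM, against 12.4% and 5.32% of mRNA features. Scaling by the upper quartile of mRNA features gave 63 and 18, against 11.7% and 5.72%. Equal totals gave another split. The FPKM columns did not sum to the same total, and setting them equal moved every log2 ratio of CM to IM by 0.26. With equal column sums, 45 members were lower and 36 higher in CM than in IM, against 7.01% and 11.7% of mRNA features. With equal totals of recovered reads, a shift of 0.28, 44 were lower and 43 higher. With equal read totals, the share of members lower in CM, 12.8%, was still above the 6.49% of mRNA features, and the share higher in CM was 12.5% against 12.9%. For CMT against CM, equal column sums gave 48 higher and 39 lower members and equal read totals gave 50 and 39. Under both of these scalings the median ratios of the members and of the mRNA features changed sign, to above 1 for CM to IM and below 1 for CMT to CM.

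Because membership depended on the mean, 62 members were under an FPKM of 100 in at least 1 library. Among the 284 that reached 100 in each library, 50 were lower and 12 higher in CM than in IM, 17.6% and 4.23%, against 11.5% and 3.89% of the mRNA features that met the same limit. Between CMT and CM, 46 of them were higher and 16 lower in CMT, 16.2% and 5.63%, against 14.1% and 4.19%. Between CMT and IM, 13 were higher and 18 lower in CMT, 4.58% and 6.34%, against 2.90% and 3.22%. Lowest in CM were 32, or 11.3%, against 8.39%. At this limit the excess of lower values in CM was thus smaller than over all members, and small for CMT against CM. Of the 80 members with recovered reads that were past the fold between CM and IM, 78 had an interval that did not hold 1.

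**Figure D2:**
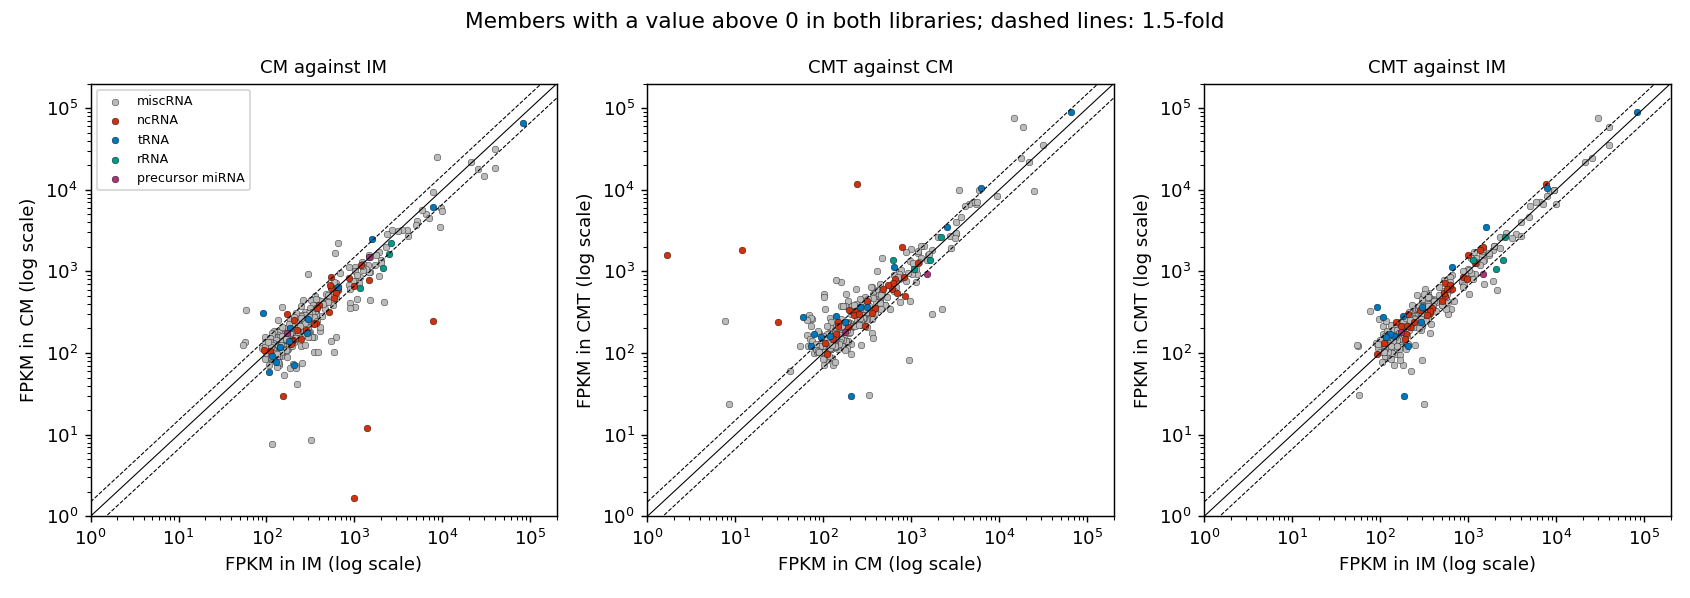
FPKM of each member in 1 library against another, on log axes, coloured by GeneType; the solid line marks equal values and the dashed lines 1.5-fold. Most points lie between the dashed lines, and the largest departures are ncRNA members that are low in CM, among them LOC100737990 with 987 in IM and 1.66 in CM.

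**Figure D3:**
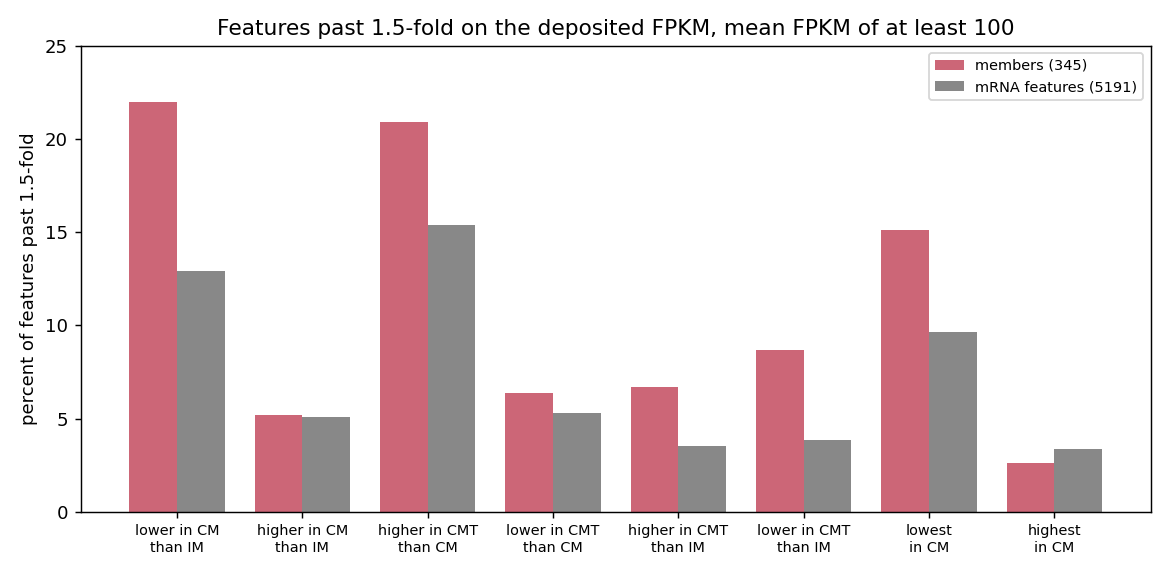
Percent of the 345 members and of the 5191 mRNA features with a mean FPKM of at least 100 that were past 1.5-fold in each direction, on the deposited scale; bars start at 0. The widest gap is for lower values in CM than IM, 22.0% of members against 12.9% of mRNA features.

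Apart from LOC102161547, the members that were lowest in CM by the largest ratios were ncRNA features, and those with a place in RefSeq lay in the CYP2C gene cluster, whose cytochrome P450 enzymes oxidise drugs and steroids. LOC100624435, a protein-coding gene between HELLS and CYP2C36 in RefSeq, had an FPKM of 7722 in IM and 244 in CM, with 11666 in CMT, which was 31.7-fold lower in CM than in IM and 47.8-fold higher in CMT than in CM. LOC100620144, a pseudogene between CYP2C36 and CYP2C34, had 1383, 11.9 and 1841, from 9891, 116 and 10706 reads. LOC100737990, without a RefSeq match, had 987, 1.66 and 1607. All 3 were high in IM and CMT and low in CM. The last of them rested on 3 reads in CM, and the ratio of CMT to CM was 969 with an interval from 331 to 4703. The messenger CYP2C36 itself had 21594 in IM against 138 in CM, with 39447 in CMT, the same order as these features. HELLS, the gene nearest to LOC100624435, had 23.7, 44.1 and 23.8, and so was highest in CM. A read from a near-identical stretch of this gene family could be assigned to more than 1 of its members, so that the values of the 2 placed features may not be independent of CYP2C36.

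Several further members had the same order with smaller ratios. LOC102157549 had 116 in IM and 7.58 in CM, with 247 in CMT, from 101, 9 and 175 reads. LOC102157700 had 580, 102 and 536, which was 5.66-fold lower in CM than in IM. Neither has a RefSeq match, so nothing is known here of what they encode. LOC102165880, which lies between SAA4 and SAA3, genes of the serum amyloid A family of acute phase proteins, had 153, 30.2 and 240. SAA4 had 398, 204 and 517, a smaller difference in the same directions. LOC102158284, an lncRNA between TOMM20 and IRF2BP2, had 619, 159 and 736, while TOMM20, an import receptor of mitochondria, had a log2 ratio of CM to IM of only -0.27 against -1.96 for the lncRNA.

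LOC100518109 was the highest of the members lowest in CM that RefSeq could place, between CNTF and GLYATL2, a relative of the glycine N-acyltransferase GLYAT that joins acyl groups to glycine for excretion. It had an FPKM of 9494 in IM and 3461 in CM, with 9987 in CMT. GLYAT, for comparison, had 9242, 3478 and 9518, nearly the same value in each library. GLYATL2 was far lower, at 69.9, 0.354 and 73.0, and also lowest in CM. CNTF, the nearest gene that reached an FPKM of 1 in each library, had 2.37, 4.34 and 6.55, and was lowest in IM. LOC100518109 and GLYAT were compared after their values had been seen, and whether reads were shared between them was not tested.

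Of the 8 members highest in CM by the largest ratios, those with a place in RefSeq lay beside genes of antigen presentation and of metal binding. LOC100515902, between SLA-5 and SLA-2 in the pig MHC class I region, had 643 in IM against 2209 in CM, with 343 in CMT, which was 3.43-fold higher in CM than in IM. SLA-11, a class I pseudogene, had 543, 859 and 498. The class I messenger SLA-1, which presents peptides to T cells, had 7826, 20796 and 6203, in the same order. SLA-5, the nearest gene to LOC100515902, had 890, 1295 and 1134, within 1.5-fold in each comparison and above its IM value in CMT. SLA-3, SLA-7 and SLA-8 were likewise highest in CM and higher in CMT than in IM. LOC102166944 lies between MT1D and MT1A, metallothioneins that bind zinc and copper. It had 299, 936 and 81.7, from 2892, 12337 and 642 reads. Its recovered length was 3852 bases, where its whole RefSeq gene has 1336, so that its reads may be too many. MT1A had 14069, 37008 and 4529, again highest in CM and lowest in CMT. The class I and the metallothionein genes each have near-identical copies, between which the counting could split or share reads.

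The others of this kind were not matched in RefSeq. LOC100738775 had the largest ratio of CM to IM, 5.74 with an interval from 5.26 to 6.27, at 58.1 in IM and 334 in CM, with 30.2 in CMT. Only its CM value was above the mean limit for membership, so this ratio was tied to that selection. LOC100515735 had 596, 1700 and 302, and LOC100622791 had 8625, 25162 and 9569. LOC100515735 was also below its IM value in CMT, by 1.97-fold, while LOC100622791 was within 1.11-fold of it. LOC102167540 had 152, 370 and 153, and LOC100738143 had 120, 185 and 115. Markers of T and NK cells were also highest in CM. CD3E, CD3D, CD2 and NKG7 summed to 343 in IM and 468 in CM, with 271 in CMT. None of the 4 was past the fold between CM and IM, and 3 of 4 were lower in CMT than in CM. Their part in the MHC values was not tested.

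**Figure D4:**
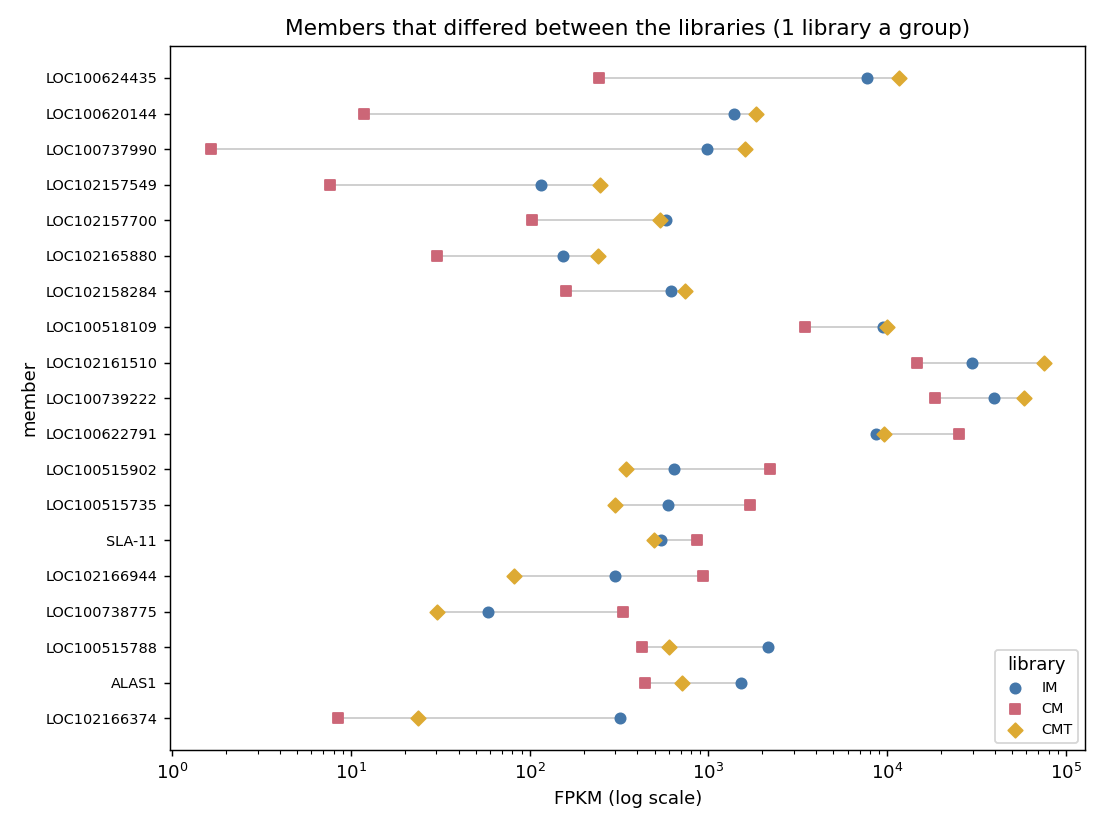
FPKM of 19 members in the 3 libraries, on a log axis, with 1 point for each library and a grey line from the lowest to the highest. From LOC100624435 down to LOC100739222 the CM value is the lowest, from LOC100622791 to LOC100738775 it is the highest, and the last 3 members are highest in IM.

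A different order, high in IM and low in both castrated groups, was seen for members tied to haem and haemoglobin, which were singled out after their values had been seen. LOC100515788, which lies next to the beta-globin gene HBB and is protein-coding in RefSeq, had 2156 in IM against 424 in CM, with 600.1 in CMT. HBB had 17158, 3400 and 5151, and the log2 ratio of CM to IM was -2.35 for the member and -2.34 for HBB. The globin feature thus followed HBB closely. ALAS1, the first and rate-limiting enzyme of haem synthesis in liver, was listed as miscRNA in the files and as a transcribed pseudogene in RefSeq. It had 1522, 442 and 711, from 3293, 1302 and 1250 reads. The erythroid form ALAS2 had 77.5, 16.2 and 30.6. Of the erythroid markers, 2 of the 3 found passed the minimum, HBB and ALAS2, and both were lower in CM and in CMT than in IM, while SLC4A1 was under an FPKM of 1 in every library. The summed erythroid level was 17236 in IM and 3416 in CM, with 5183 in CMT, and its part in the values of LOC100515788 was not tested.

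LOC102166374 had the lowest ratio of CMT to IM of all members. Its FPKM was 318 in IM and 8.48 in CM, with 23.7 in CMT, from 413, 15 and 25 reads. LOC102161375 had 224, 42.1 and 60.4, from 82, 21 and 18 reads. Only the IM value of each was above the mean limit for membership, so their low ratios were tied to that selection. Neither has a RefSeq match. In the opposite direction, LOC102168085, a protein-coding gene in RefSeq, had 96.2 in IM against 157 in CM, with 259 in CMT and so was 2.69-fold higher in CMT than in IM, with an interval from 2.36 to 3.06.

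Of the 43 members matched to RefSeq lncRNAs, 9 were lower in CM than in IM and 0 higher, 20.9% and 0% against 12.9% and 5.07% of mRNA features. Scaling by the median ratio or by the upper quartile of mRNA features also gave 9 lower and 0 higher. The split was lost with equal column sums, at 8 lower and 6 higher, and with equal read totals, at 8 and 8. On the deposited scale their median for CM to IM on the log2 scale was -0.08. The highest of them, LOC100513133, had 9982 in IM and 5453 in CM, with 6620 in CMT, a 1.83-fold lower value in CM than in IM. LOC100738508, named TXNL4B but typed as an lncRNA in RefSeq, lies beside HP, which encodes the haemoglobin-binding plasma protein haptoglobin. It had 5926, 5601 and 7016, and HP had 36449, 36006 and 42902, so that neither was past the fold. LOC100626416, between MYO16 and IRS2, was higher in IM, at 1924, than in CM and CMT, at 882 and 757. LOC102164965, between CEBPB and PTPN1, had 214, 69.2 and 289, and CEBPB, a transcription factor of hepatocytes, had 496, 190 and 277. PTPN1, its nearest gene, had 105, 61.8 and 62.4, and so was not higher in CMT past the fold. Near HNF4A, the nuclear receptor that sets hepatocyte identity, LOC102159476 had 299, 178 and 216, while HNF4A had 896, 830 and 1114, within 1.5-fold in each comparison. LOC102163508, near the glycerol-3-phosphate dehydrogenase gene GPD1, had 276, 127 and 201, and GPD1 had 758, 835 and 787. On the deposited scale both lncRNAs were lower in CM than in IM past the fold while the protein-coding neighbour was not, and for LOC102159476 this ended with equal column sums or equal read totals.

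The ncRNA members other than the 3 lowest in CM had smaller ratios. Among those highest in level, LOC100519510 had 1479 in IM and 776 in CM, with 1967 in CMT. LOC100626114 had 1197, 1198 and 1264. INSIG2, which holds the sterol sensor of cholesterol synthesis in the endoplasmic reticulum and was classed as ncRNA in the files, had 205, 252 and 302, and was 1.23-fold higher in CM than in IM. Its relative INSIG1, classed as mRNA, had 1075, 439 and 605. LOC100627285, beside the fatty acid hydroxylase CYP4A24, had 246, 149 and 239, and CYP4A24 had 2436, 1369 and 2396.

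Of the 58 members that RefSeq types as protein-coding, 13 were lower and 4 higher in CM than in IM, 22.4% and 6.90% against 12.9% and 5.07% of mRNA features. With equal column sums 5 were lower and 7 higher, and with equal read totals 5 and 8. ALDH1A1, listed as LOC100517137, had 7799 in IM against 9350 in CM, with 8281 in CMT, and DDX5, listed as LOC102158045, had 1739, 1568 and 1611, both within 1.5-fold. For 7 members, 6 of them protein-coding in RefSeq, the files also held an mRNA feature under the RefSeq symbol. For COL18A1, a basement membrane collagen, the member LOC100624675 had 1995, 1381 and 2067 and the mRNA feature had 1501, 1023 and 1595, the same order at a somewhat lower level. For DDX23, a splicing helicase, the member had 124, 126 and 124 and the mRNA feature 129, 138 and 131. The lncRNA among them, LOC100738508, had 5926, 5601 and 7016, while the mRNA feature TXNL4B had 68.7, 45.1 and 37.9, so that the first was highest and the second lowest in CMT.

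For 101 members with a place in RefSeq, the nearest named protein-coding gene also reached an FPKM of 1 in each library, so that neighbours could be set side by side. Across these pairs, Pearson's r of the log2 ratio of CM to IM was 0.490 and Spearman's rho was 0.185. The correlation is a description across genes that share the same 3 libraries and are not independent replicates. Of the 27 members past the fold between CM and IM, 8 had a nearest gene past the fold in the same direction and 4 in the opposite direction. For the rest the nearest gene was within 1.5-fold. A member that differed thus more often had a nearest gene that did not, and the pairs named above, at CYP2C36, MT1A, HBB and SAA4, are among the exceptions.

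The 4 rRNA members differed from each other. The cytoplasmic RN18S, of the small ribosomal subunit, had 2624 in IM and 2200 in CM, with 2661 in CMT. RN5-8S, of the large subunit, had 1144, 626 and 1370. Both were lowest in CM on the deposited scale, RN18S by less than the fold and no longer below IM with equal read totals or column sums, and RN5-8S by 1.83-fold against IM, with an interval of the ratio of CM to IM from 0.445 to 0.672. The mitochondrial rRNAs had another order. 16S had 2488 in IM and 1643 in CM, with 1366 in CMT, and 12S had 2097, 1087 and 1075. Both were past the fold lower in CM and in CMT than in IM, and the ratio of CMT to CM was within 1.5-fold for both. Under each of the 4 other scalings, 16S was within 1.5-fold between CM and IM, with log2 ratios from -0.58 to -0.32. The recovered length of RN5-8S was 78 bases, where RefSeq gives 156, and that of 12S was 160, where it gives 960. The recovered reads of both may thus be too few.

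The messengers of the mitochondrial genome did not share the last step. The 13 mitochondrial protein genes had log2 ratios of CM to IM with a median of -0.48, between -0.61 and 0.00, and of CMT to IM with a median of -0.05, between -0.27 and 0.42. The log2 ratio of CMT to IM was -0.87 for 16S and -0.96 for 12S, below the whole range of those messengers. Poly(A) capture acts on rRNA and messengers differently, and a difference in capture between the libraries cannot be told apart from a difference in level. Of the 9 listed factors of mitochondrial transcription and RNA processing, 6 were measured, and none was past the fold in any comparison.

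**Figure D5:**
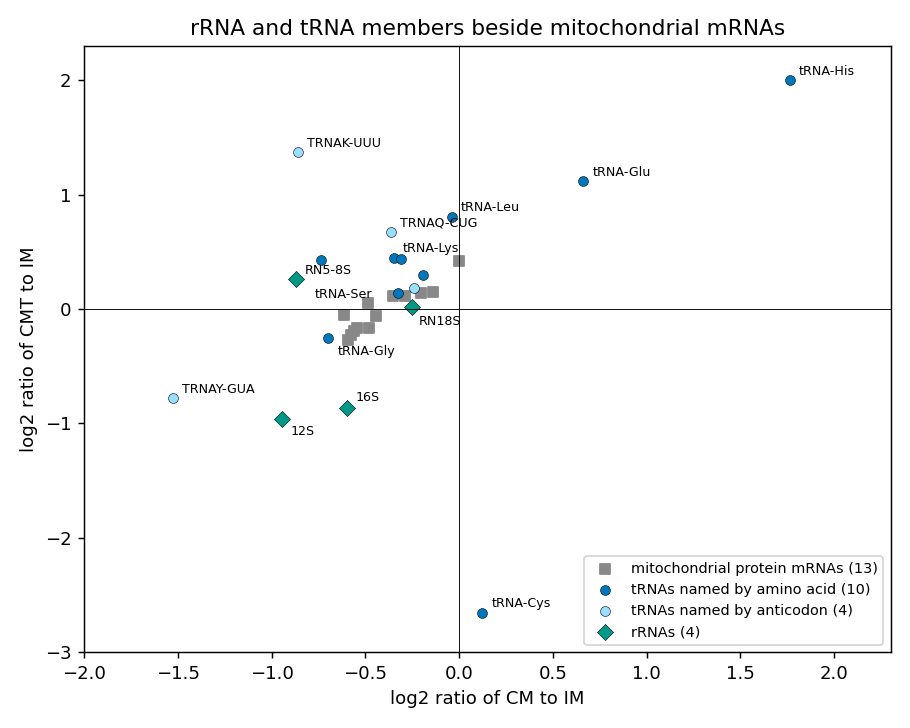
Log2 ratio of CM to IM (horizontal) and of CMT to IM (vertical) for the 4 rRNA and 14 tRNA members and for the 13 mitochondrial protein mRNAs; each point is 1 feature, and 4 tRNA members near the centre are not named. 12S and 16S sit below the mitochondrial mRNAs, at -0.96 and -0.87 on the vertical axis, and tRNA-Cys and tRNA-His lie farthest from the rest.

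Of the 14 tRNA members, 10 carried the name of an amino acid and 4 that of an anticodon. The files do not say which genome the first kind comes from. The recovered length of each of the 10, or a whole multiple or fraction of it, equals that of a mitochondrial tRNA in RefSeq, but nuclear tRNAs have similar lengths. tRNA-Ser was the highest of all 346 members, at 82262 in IM and 65530 in CM, with 90714 in CMT, from 14660, 15912 and 13139 reads on 71 bases. It alone held 17.2%, 17.4% and 16.4% of the members' FPKM sum. A tRNA-Ser gene lies directly beside the COX1 gene in the mitochondrial genome of vertebrates, and COX1, a subunit of cytochrome c oxidase, had 119287, 93343 and 128805, the same order. Where the counting does not use strand, reads of adjoining or overlapping mitochondrial genes cannot be told apart.

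The next tRNAs also had their highest value in CMT. tRNA-Lys had 7808 in IM and 6132 in CM, with 10667 in CMT. tRNA-Leu had 653, 636 and 1144, and was 1.75-fold higher in CMT than in IM. tRNA-Glu was also higher in CM, with 1596, 2526 and 3461, a 2.17-fold higher value in CMT than in IM with an interval from 2.04 to 2.31. Its recovered length was 414 bases, where a mitochondrial tRNA of RefSeq has 69, so that its reads may be too many and the interval too narrow. In all, 7 of 14 tRNA members were past the fold higher in CMT than in CM and 1 was lower, and 5 were higher and 2 lower in CMT than in IM. Of mRNA features, 15.4% and 5.32% were higher and lower in CMT than in CM, and 3.51% and 3.83% in CMT than in IM. With equal column sums or equal read totals, 4 tRNA members rather than 7 were higher in CMT than in CM. Over the 14, the median log2 ratio of CMT to CM was 0.62, against 0.14 over mRNA features. tRNA-Met was nearer to level, with 296, 259 and 364.

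Below these, the tRNA counts were small. tRNA-His had 92.4 in IM and 314 in CM, with 369 in CMT, from 16, 74 and 52 reads. tRNA-Cys had 187, 204 and 29.7, from 31, 46 and 4 reads, and so was the only tRNA past the fold lower in CMT than in CM, with an interval of the ratio from 0.0381 to 0.399. Among those named by anticodon, TRNAK-UUU had 108, 59.3 and 278 from 20, 15 and 42 reads, and TRNAY-GUA had 207, 72.1 and 121 from 38, 18 and 18 reads. TRNAQ-CUG had 181, 140 and 288, and TRNAE-UUC had 142, 120 and 161. The remaining members, tRNA-Gly, tRNA-Asp and tRNA-Arg, lay between 77.4 and 289 in every library. The interval of the ratio of CM to IM held 1 for TRNAK-UUU, TRNAQ-CUG and TRNAE-UUC and did not for TRNAY-GUA.

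The precursor miRNAs were MIR122, the hairpin of the most abundant miRNA of hepatocytes, and MIR21, which is found in most tissues and is raised in many injured ones. MIR122 had 1462 in IM against 1500 in CM, with 934 in CMT, from 312, 436 and 162 reads. It was within 1.03-fold between CM and IM and 1.57-fold lower in CMT than in IM, with an interval of the ratio from 0.525 to 0.775. MIR21 had 173, 178 and 181, from 20, 28 and 17 recovered reads on a recovered length of 46 bases, where RefSeq gives 92, so that its reads may be too few by a factor of 2. Its ratio of CM to IM was 1.03, with an interval from 0.558 to 1.92. Neither value measures the mature miRNA.

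Protein partners of noncoding RNAs were close to level. All 8 core proteins of small nucleolar RNPs, among them fibrillarin (FBL) and dyskerin (DKC1), were within 1.5-fold between CM and IM, with a median log2 ratio of 0.21, and 1 was lower in CMT than in CM. The 5 proteins measured of the signal recognition particle, which brings ribosomes to the endoplasmic reticulum, had a median of 0.01, the 4 of paraspeckles 0.11, and the 5 factors of nonsense-mediated decay 0.01. The exceptions past the fold included UPF2, which takes part in the decay of messengers with an early stop, at 72.3 in IM, 91.6 in CM, then 162 in CMT. Of the 11 subunits of the nuclear exosome, which degrades noncoding RNA, 1 was lower in CM than in IM. In none of these 5 lists was a gene higher in CM than in IM past the fold.

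The tissue label was checked on hepatocyte markers, of which the 7 found, among them albumin and apolipoproteins, had a median FPKM of 67592 in IM and 53170 in CM, with 66662 in CMT. Their sum was 1026769, 752642 and 794666, most of it from albumin (ALB), which had 690375, 476360 and 445509 and was past the fold lower in CMT than in IM. Fibrinogen beta (FGB) had 46989, 21358 and 67812 and was past the fold lower in CM and higher in CMT than in CM. Other cell types were present at lower levels. The 3 macrophage markers found summed to 1879, 1142 and 1851. Past the fold, 1 was lower in CM than in IM and 2 were higher in CMT than in CM. The 5 stellate cell and fibroblast markers summed to 899, 872 and 776, and 1 was higher in CMT than in CM and in IM. The 2 endothelial markers summed to 448, 356 and 435, and 1 was lower in CM and in CMT than in IM. The only cholangiocyte marker found, EPCAM, had 36.6, 62.6 and 41.4, past the fold higher in CM than in both other libraries. None of the markers found was at 0. Their part in the values of the members was not tested.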

How the data were processed

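Liver RNA of the IM, CM and CMT groups was pooled by group, captured with oligo(dT) beads, made into TruSeq libraries with paired-end adapters and sequenced. The authors checked reads with FastQC, mapped them to Sscrofa10.2 with TopHat and deposited values named FPKM for each annotated feature. By definition, FPKM divides fragments by feature length and library total. The program that counted reads, its use of strand and the annotation are not given in the sources used here. The deposited FPKM values were compared by ratio, without rescaling or pseudocount, among features that reached an FPKM of 1 in each library. The members, gene lists and alternatives were chosen with earlier results of these data known. FPKM values were whole multiples of a step per gene, which gave reads and lengths for 23090 of 24277 features above 0, with lengths up to 10000 bases and a tolerance of 1e-05 reads. The smallest length was taken, so that a common factor can be lost, and some lengths are longer than RefSeq gives. The divisor of each library was set on features whose RefSeq length gave whole reads. These were 98 of 1169 in IM and 98 of 1227 in CM, with 86 of 1133 in CMT. Of these features, 76.5% to 88.8% had an even number of reads, as where both mates of a pair are counted. Intervals are then too narrow, while a lost common factor makes them too wide. RefSeq of Sscrofa11.1 gave names, and its gene positions gave the neighbours, but no coordinates are printed. Named members are all of a GeneType with up to 5 members, the 5 highest of each other GeneType, the 8 largest rises and falls in CM against both others, the 4 largest rises and falls of CMT to IM, and known noncoding RNAs, and others are given by symbol, neighbour or level after their values were seen. The recovery and the calls were tested on simulated data. Python 3.11.15, numpy 2.4.6, pandas 2.3.3, scipy 1.17.1 and matplotlib 3.10.9 were used.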

Additional observations from a re-analysis of the deposited data

How the results depend on the processing

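With 1 library a group, no library could be left out, and no paired analysis was possible because each group has 1 library. The shares in IM, CM and CMT were 5.74%, 5.44% and 6.63% for a mean minimum of 50, 5.28%, 4.95% and 6.17% for 200, 5.40%, 5.11% and 6.28% for members at 100 or more in each library, and 6.13%, 5.88% and 7.00% with no minimum, always lowest in CM and highest in CMT. They were 6.83%, 6.33% and 7.66% of the column sum without its 10 highest mRNA features, 2.71%, 2.83% and 2.77% of recovered reads, and, in an alternative chosen after seeing the data, 4.72%, 4.75% and 4.87% without LOC102161510 and LOC100739222.

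Counts in the order higher and lower in CM than IM, higher and lower in CMT than CM, higher and lower in CMT than IM, lowest and highest in CM were 42, 122, 126, 59, 44, 55, 87 and 26 of 601 members with a minimum of 50, 12, 47, 43, 14, 14, 17, 31 and 6 of 198 with 200, and 9, 35, 38, 10, 8, 10, 25 and 6 with a 2-fold threshold. With equal read totals, 43 were higher and 44 lower in CM than IM, 39 lower in CMT than CM, and 33 lowest and 21 highest in CM, and with equal column sums 36, 45, 39, 34 and 19. A pseudocount of 1, scaling by the upper quartile or by the median ratio of mRNA features and a fold with an interval that did not hold 1 kept every count within 1.5 times, except that 5 members were highest in CM with the interval. With at least 30 reads in every library, added after seeing the data, 11 were higher in CM than IM, 14 higher in CMT than IM and 5 highest in CM. At that minimum, 4.79% were higher and 7.53% lower in CMT than IM, against 3.50% and 3.48% of mRNA features. The counts by class with equal column sums or read totals were also added after seeing the data. In every alternative the share of members lower in CM than IM stayed above that of mRNA features. Of the 127 ratios of named members, none past the fold changed sign under any scaling or the pseudocount, and 13 values crossed the fold while 622 did not.

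Without replicates, depth limits only counting error, and 24 of 316 members had under 30 reads in a library.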
